A study of Mus musculus with 64 samples.

Results

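The response of the ventral hippocampus (vHPC) to oral corticosterone (CORT) was examined in female hMet mice, which are heterozygous for the BDNF Val66Met variant. The members are all 21088 genes of the deposited comparison of CORT with vehicle in these animals, of 21114 genes that the tables of the vHPC and of the dorsal hippocampus (dHPC) hold together. From 2 months of age, hMet females on the C57BL/6 background drank CORT at 25 mg/l in 1% ethanol, or 1% ethanol alone as vehicle, for 6 weeks. Both arms thus carry the same genotype and the same ethanol. WT females and hMet males, to which the response is compared, were treated in the same way, and wild-type animals lack the Met variant. RNA of 2 animals was pooled in each library, and the sample labels list 4 libraries for CORT and 4 for vehicle, 8 in all, of the 64 in the series. The extraction text gives 3 replicates for each group instead, and the design text of the series gives 2 weeks of treatment and, for the mutant, male mice. The p-values measure the spread between such pooled libraries and not between single animals. This spread was estimated over the libraries of all 8 vHPC groups, males and wild-type animals included, and not from the libraries of hMet females alone.

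The tables give, for each gene, the average level over all vHPC libraries in log2 CPM (read counts scaled to library size, on the log2 scale), the log2 fold change between CORT and vehicle, and its test by limma-voom, a linear model on weighted log counts. They hold no value per library, so the spread between libraries appears here only through the standard error of each fold change, and whether the CORT and vehicle libraries overlap was not analysed here. Standard errors are the moderated ones, which are the fold change divided by limma's moderated t. The direction of the fold change is not named in the tables, and a value above 0 was taken to mean more RNA with CORT. The model of the vHPC had 22 residual degrees of freedom, whereas 32 libraries in 8 groups leave 24, and which libraries it left out is not given in the sources used here. Markers of the tissue were present: Slc17a7 and Camk2a, genes of excitatory neurons, averaged 10.41 and 11.99 log2 CPM. Trhr, a gene of the ventral hippocampus, averaged 4.07 log2 CPM in the vHPC and 0.60 in the dHPC, which were normalised separately.

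CORT is the main glucocorticoid of rodents. It crosses into the brain and binds the mineralocorticoid receptor and, at higher concentrations, the glucocorticoid receptor, which move to the nucleus and change transcription. The hippocampus is rich in both receptors and takes part in the feedback that restrains further CORT release. Its ventral part is connected with the amygdala and the hypothalamus and is studied for its role in anxiety and stress. BDNF is a neurotrophin released with neuronal activity, and the Met variant is known to lower its activity-dependent secretion.

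Most genes past the study's threshold were higher with CORT. At an unadjusted p under 0.05 and a fold change (FC) over 1.3, 334 genes were higher (1.58% of the 21088 tested) and 94 were lower (0.446%), so that 78.0% of these 428 genes (2.03%) were higher. At an adjusted p under 0.05 (Benjamini-Hochberg over all genes, limma) 0 genes remained, and the smallest adjusted p was 0.849. Without the fold filter, 671 genes had an unadjusted p under 0.05 and were higher (3.18%) and 523 were lower (2.48%), together 5.66%. In hMet females, and in the differences of their response from other groups, no gene named below is past an adjusted threshold. Those described as higher or lower in them are past an unadjusted one only. In hMet males some named genes had an adjusted p under 0.05 (limma), among them Spink8, Dbp and Tfrc. The genes past the threshold were weakly expressed, with a median level of -0.59 log2 CPM for those higher and -1.24 for those lower, against 3.08 for all genes. Among the 14197 genes averaging at least 1 log2 CPM, 84 were higher (0.592%) and 12 lower (0.0845%), together 0.676%.

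**Figure D1:**
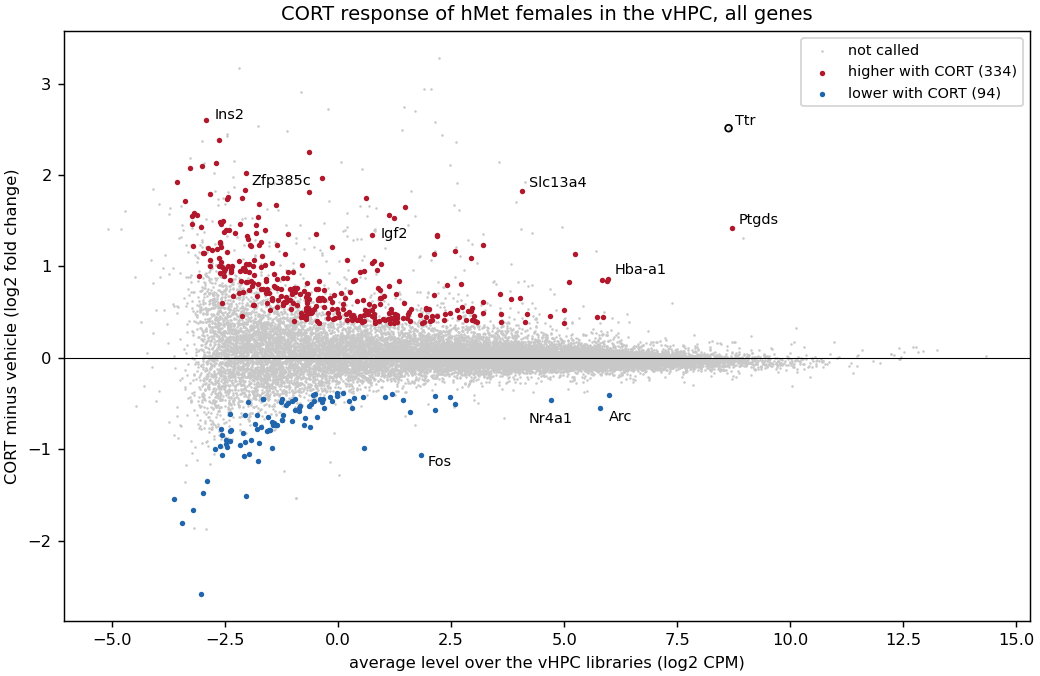
Log2 fold change of CORT against vehicle in the vHPC of hMet females (vertical axis) against the average level over the vHPC libraries (horizontal axis, log2 CPM), one point per gene. Red and blue points are the 334 genes higher and the 94 lower at an unadjusted p under 0.05 and FC over 1.3; the open circle is Ttr, which was not past it. The coloured points lie mostly at low levels, and the blue ones above 1 log2 CPM include Arc, Nr4a1 and Fos.

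The direction of the fold change depended on the level of the gene. Of genes under -2 log2 CPM 61.8% had a fold change above 0, with a median log2 fold change of 0.13. Of genes at 7 log2 CPM and over 26.9% did, with a median of -0.03. At an unadjusted p under 0.05, genes averaging at least 5 log2 CPM were lower in 216 cases and higher in 80. Of the 4239 at 5 to 7 log2 CPM, 154 were lower and 73 higher, and of the 1571 above these, 62 and 7. Of the 6891 genes averaging under 1 log2 CPM, 270 were higher and 108 lower. Over all genes 3.18% were higher and 2.48% lower. WT females and hMet males ran the other way, a difference that was not tested: the share above 0 went from 43.4% under -2 log2 CPM to 64.9% at 7 and over in WT females, and from 40.6% to 74.2% in hMet males. When each fold change was centred on the median of genes of the same level, a setting chosen after seeing the data, 221 genes were higher and 160 lower at the same threshold, so that 58.0% were higher. Of these, 220 and 94 were among the genes that passed without centring. The median standard error was 0.45 under -2 log2 CPM and 0.05 at 7 and over, so a weakly expressed gene needed a larger fold change to pass.

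**Figure D2:**
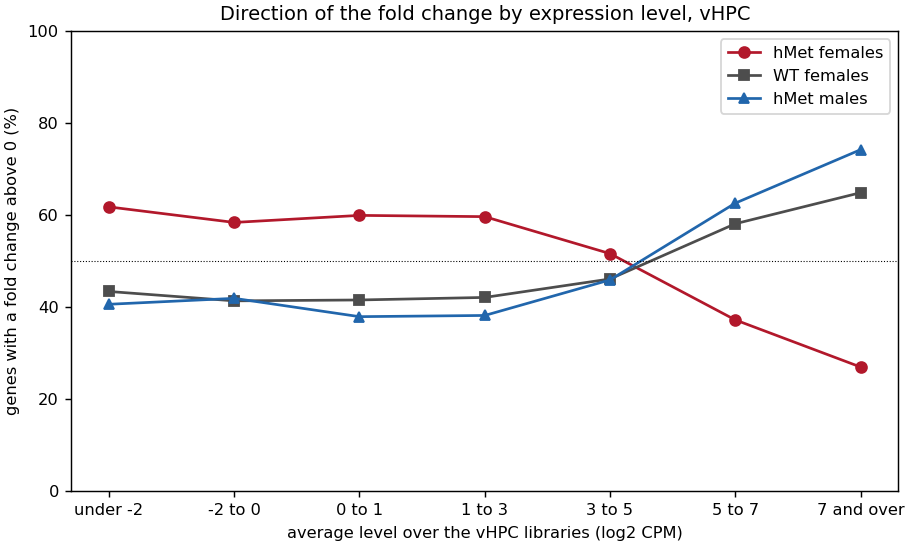
Share of genes with a log2 fold change above 0 (vertical axis, %) in 7 classes of average level (horizontal axis, log2 CPM) for the CORT response of hMet females, WT females and hMet males in the vHPC. In hMet females the share falls from 61.8% to 26.9% as the level rises, and in the other groups it rises.

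Immediate early genes are switched on in neurons within minutes of activity. Of 18 listed members, all measured, 17 had a fold change below 0, and 8 were lower at an unadjusted p under 0.05 (44.4%, against 2.48% of all genes), while 0 were higher. The median log2 fold change of the list was -0.28, against 0.00 for all genes. Arc, a synaptic scaffold gene whose RNA travels to active dendrites (chromosome 15 of GRCm38, 74669083 to 74672570), averaged 5.80 log2 CPM and was 1.46-fold lower, a log2 fold change of -0.55 (standard error 0.16, 95% interval -0.88 to -0.21). Nr4a1, an orphan nuclear receptor (chromosome 15, 101254269 to 101274795), had -0.46 (standard error 0.14, 95% interval -0.75 to -0.17). Arc and Nr4a1 had the smallest p of all genes that were past the threshold, lower and at least 1 log2 CPM.

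Members of the Fos and Egr families encode transcription factors. Fosb was at -0.43 on the log2 scale (95% interval -0.79 to -0.07), Egr1 at -0.41 (-0.77 to -0.05) and Egr4 at -0.34 (-0.59 to -0.10). Fos (chromosome 12, 85473890 to 85477273) had the largest fold change of the list, -1.06, with a standard error of 0.51, and its p of just under 0.05 lies at the threshold. Egr2 had -0.83 with a standard error of 0.51 and was not past it. Homer1, whose short activity-induced form competes with the long scaffold forms, had -0.22 (standard error 0.07), and the table does not separate the forms. Ier2 had -0.23 (standard error 0.11). Jun, at 0.14 (standard error 0.13), was the member above 0, and Jund, at -0.01 (standard error 0.09), was close to 0.

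Many promoters of this list bind CREB, a factor activated by calcium and cAMP whose half-site is TGACG. To show what these promoters share, the 250 bases before the start site that RefSeq gives on GRCm38.p6 are printed for 4 of the 8 members past p of 0.05. TGACG, read on either strand (as CGTCA where it lies on the other strand), is in capitals, and in Fos also the TATA motif TATAAA.
Fos, chr12:85473640-85473889, plus strand: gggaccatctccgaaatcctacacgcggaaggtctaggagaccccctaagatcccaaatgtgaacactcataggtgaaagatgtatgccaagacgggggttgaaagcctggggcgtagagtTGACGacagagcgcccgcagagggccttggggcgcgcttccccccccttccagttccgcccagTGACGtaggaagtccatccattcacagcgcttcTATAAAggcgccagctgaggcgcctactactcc
Fosb, chr7:19310046-19310295, minus strand: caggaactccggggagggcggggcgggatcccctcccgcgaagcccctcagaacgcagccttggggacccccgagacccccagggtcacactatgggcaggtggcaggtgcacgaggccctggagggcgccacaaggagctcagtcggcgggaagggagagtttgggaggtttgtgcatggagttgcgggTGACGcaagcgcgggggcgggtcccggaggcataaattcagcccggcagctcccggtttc
Nr4a1, chr15:101266596-101266845, plus strand: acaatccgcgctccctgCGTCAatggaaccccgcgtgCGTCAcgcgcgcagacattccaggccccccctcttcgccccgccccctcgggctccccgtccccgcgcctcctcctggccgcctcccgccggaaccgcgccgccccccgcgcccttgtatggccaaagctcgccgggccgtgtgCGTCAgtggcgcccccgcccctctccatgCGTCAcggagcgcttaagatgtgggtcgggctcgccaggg
Egr4, chr6:85513590-85513839, minus strand: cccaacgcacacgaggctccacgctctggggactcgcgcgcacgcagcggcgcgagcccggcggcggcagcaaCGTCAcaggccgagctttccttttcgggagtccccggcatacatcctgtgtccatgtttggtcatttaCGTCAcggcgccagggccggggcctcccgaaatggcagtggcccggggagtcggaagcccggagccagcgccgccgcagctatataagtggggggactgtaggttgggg
Counted from the start site, TGACG began at -129 and -66 in Fos, with TATAAA at -33, and at -60 in Fosb. Nr4a1 held 4 copies and Egr4 held 2, all on the other strand. Of the 14 members with a promoter in the table, 11 (78.6%) held TGACG in this window, as did 27.7% of the 13516 tested genes and 19.8% of all 27025 genes with a promoter there. Of the genes past the study's threshold, 19.5% of those higher and 24.2% of those lower held it. The full palindrome TGACGTCA was in 0 of the 14 and in 2.71% of tested genes. A match describes these letters only. Several members are known CREB targets, which raises the share of such a list, and a relation of the motif to the CORT response was not tested. Arc, Egr1 and Ier2 had no promoter among those searched and are not counted in the share.

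In WT females the median log2 fold change of the list was -0.12 and 6 of 18 members were lower at p under 0.05 (1.66% of all genes were). Arc had -0.40, Nr4a1 -0.37 and Egr1 -0.37 there. In hMet males the median was 0.04, and 0 members were lower and 2 higher (8.98% and 9.33% of all genes). The response of hMet females minus that of WT females was -0.15 for Arc (95% interval -0.62 to 0.32) and -0.03 for Egr1 (-0.55 to 0.48), so that neither difference was past its error and both intervals are wide. Homer1 was the 1 member whose difference from WT females had an unadjusted p under 0.05, at -0.25 (-0.46 to -0.04), where 2.12% of all genes were lower by this test. Against hMet males 6 of 18 members were lower (8.1% of all genes). The difference of Arc was -0.77 (-1.24 to -0.30, adjusted p = 0.200) and that of Homer1 -0.36 (-0.57 to -0.15, adjusted p = 0.188), from limma's errors with adjustment over all genes. In the dHPC of hMet females 0 members had p under 0.05 (1.68% of all dHPC genes were higher and 1.55% lower), and the list had a median of -0.03, with Arc at -0.01 and Nr4a1 at -0.06.

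**Figure D3:**
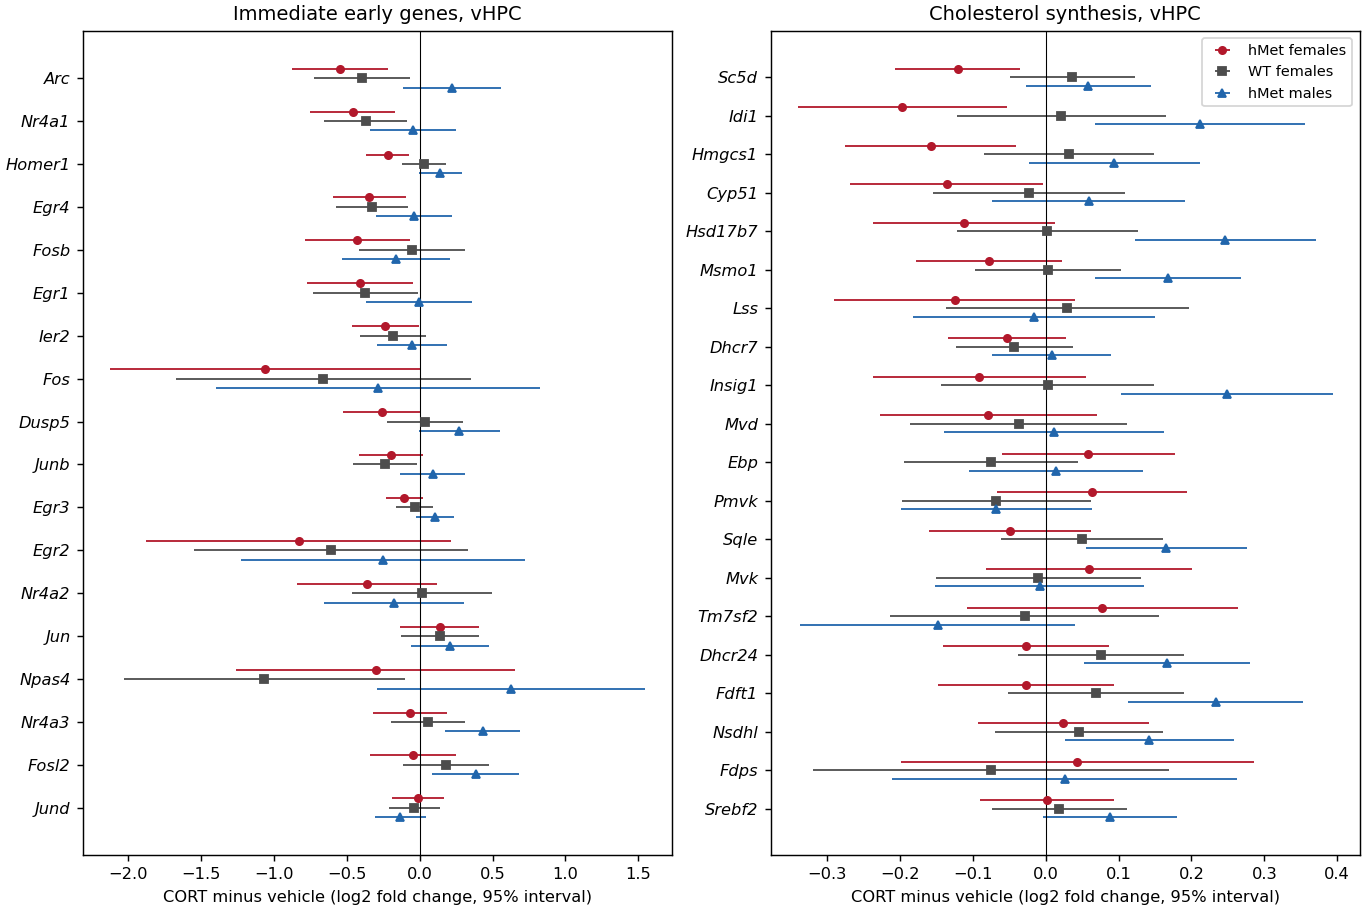
Log2 fold change of CORT against vehicle in the vHPC (horizontal axis) with 95% intervals, for the 18 immediate early genes (left) and 20 of the 22 cholesterol synthesis genes (right), ordered by p in hMet females. Circles are hMet females, squares WT females and triangles hMet males. Arc lies at -0.55 in hMet females and Idi1 at -0.20, and the intervals of most other members cross 0.

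The pathway of cholesterol synthesis builds cholesterol from acetyl-CoA, and its enzymes are regulated together by SREBP-2. Of 22 members 0 were higher and 5 were lower at an unadjusted p under 0.05 (22.7%, against 2.48% of all genes), with a median log2 fold change of -0.05. Among these 5 were Idi1, which isomerises isopentenyl diphosphate (-0.20, standard error 0.07), Hmgcs1, which makes HMG-CoA (-0.16, standard error 0.06), Cyp51, a sterol demethylase (-0.14, standard error 0.06), and Sc5d, a late desaturase (-0.12, standard error 0.04). The FC of each of these genes was under 1.3. Srebf2, which encodes SREBP-2, had 0.00. In WT females 0 of 22 had p under 0.05 (1.52% of all genes were higher and 1.66% lower), and in hMet males 10 were higher (9.33% of all genes), with a median of 0.09.

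Against the response of WT females 3 members were lower at an unadjusted p under 0.05 (Sc5d, Idi1 and Hmgcs1), where 2.12% of all genes were. Against hMet males 12 of 22 were lower, where 8.1% of all genes were. Idi1 differed from hMet males by -0.41 (95% interval -0.61 to -0.21, adjusted p = 0.188). A motif of the SREBP family, TCACNCCAC, was searched on both strands in the same upstream windows. It was present in 1 of the 16 members with a promoter in the table (6.25%) and in 1.21% of tested genes. That member was Hmgcs1, whose window is shown with the motif in capitals, from -137 to -129.
Hmgcs1, chr13:119690101-119690350, plus strand: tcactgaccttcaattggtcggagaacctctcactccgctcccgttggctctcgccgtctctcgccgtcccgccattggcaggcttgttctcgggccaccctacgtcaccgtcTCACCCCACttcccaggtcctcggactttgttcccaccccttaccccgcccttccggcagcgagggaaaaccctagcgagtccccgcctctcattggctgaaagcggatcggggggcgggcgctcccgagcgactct

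The receptors of CORT and most of its known target genes did not pass the threshold. Of 16 measured genes of receptors, chaperones and CORT metabolism, 0 had p under 0.05 in either direction (3.18% of all genes were higher and 2.48% lower). Of the 16, 13 had a fold change below 0, at a median level of 6.46 log2 CPM. Most genes of such a level were below 0 too, as only 37.2% of all genes at 5 to 7 log2 CPM were above 0. Centred by expression level, the median of the list went from -0.05 to -0.02. Nr3c1, the glucocorticoid receptor, had a log2 fold change of -0.13 (95% interval -0.31 to 0.05) and Nr3c2, the mineralocorticoid receptor, -0.08 (-0.35 to 0.20). Of 30 genes that glucocorticoids are known to induce, 2 were higher (6.67%, against 3.18% of all genes) and 0 lower, with a median of 0.07. Prodh, a mitochondrial proline oxidase, had 0.20 (standard error 0.08), and Sult1a1, a sulfotransferase, 0.51 (standard error 0.24). Fkbp5, a co-chaperone that reports glucocorticoid receptor activity in many tissues, had -0.03 (-0.28 to 0.21). Tsc22d3 had -0.22 (-0.55 to 0.11) and Sgk1 -0.18 (-0.54 to 0.19). In hMet males 10 of the 30 were higher (9.33% of all genes). Fkbp5 was at 0.49 there, and the difference was -0.53 (-0.88 to -0.18, adjusted p = 0.201). Bdnf itself had -0.06 (-0.31 to 0.18), against 0.45 in hMet males.

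Of 19 clock genes, 3 were lower at an unadjusted p under 0.05 (15.8%, against 2.48% of all genes) and 0 higher. In hMet males 7 of the 19 were lower (8.98% of all genes) and 1 higher. In hMet females Cry2, a repressor of the clock, had -0.11 (standard error 0.03), Bhlhe40 -0.19 (standard error 0.07) and Bhlhe41 -0.13 (standard error 0.06). The last pair encodes repressors that bind the E-box. Per1, which is also induced by glucocorticoids, had -0.12 (standard error 0.07) and Dbp, an output gene, -0.02 (standard error 0.11). Dbp was at -0.73 in hMet males, and the difference of 0.70 (95% interval 0.38 to 1.03) had an adjusted p of 0.188.

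All 30 markers of the choroid plexus, the epithelium of the ventricles that secretes cerebrospinal fluid, had a fold change above 0, with a median of 1.76 and a range of 0.44 to 3.28, but only 2 (6.67%, against 3.18% of all genes) had an unadjusted p under 0.05. Ttr, transthyretin, averaged 8.63 log2 CPM and had 2.51, with a standard error of 2.17 and a 95% interval that includes 0. The median standard error of these markers was 1.16, against 0.10 for all genes. The 2 were Igf2 (1.56, standard error 0.69) and Cldn1 (1.33, standard error 0.63), which other barrier cells also express. In WT females 28 of the 30 were below 0 (median -0.58), in hMet males 27 (median -0.39) and in the dHPC of hMet females all 30 (median -1.05), with 0 at p under 0.05 in any of these. The intervals of the differences included 0 for every marker, for Ttr from -3.29 to 9.45 against WT females.

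All 20 genes of meningeal fibroblasts were above 0 (median 0.78, median standard error 0.51), and 6 (where 3.18% of all genes were) had an unadjusted p under 0.05. Ptgds, prostaglandin D synthase, averaged 8.71 log2 CPM and had 1.42 (standard error 0.52). Slc13a4, a sulfate transporter of the meninges and choroid plexus, had 1.82 (standard error 0.76). Igfbp2, Slc22a6 and Crabp2 had 1.14, 1.17 and 1.34, and Igf2 stands in both lists. The collagens Col1a1 (0.53, standard error 0.40) and Col3a1 (0.66, standard error 0.61) did not pass. In WT females 17 of the 20 were above 0 (median 0.22), in hMet males 9 (median -0.14) and in the dHPC of hMet females 5 (median -0.23), with 0 at p under 0.05 in any of these.

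Of 8 red blood cell genes 6 were above 0 and 4 of them, the globins, were higher at an unadjusted p under 0.05 (3.18% of all genes were). Hba-a1, Hba-a2, Hbb-bs and Hbb-bt had log2 fold changes of 0.83 to 0.86 (standard errors 0.37 to 0.39). Hba-a1 and Hba-a2, like Hbb-bs and Hbb-bt, are near-identical copies that share reads, so they are not separate measurements. Alas2, the erythroid enzyme of haem synthesis, had 0.72 (standard error 0.42). The globins were at 0.06 to 0.20 in WT females, at 0.55 to 0.63 in hMet males and at 0.76 to 0.85 in the dHPC of hMet females. Of 18 ependymal markers, 11 were above 0 and 0 had p under 0.05. In bulk tissue fewer cells of a type and less RNA per cell cannot be told apart. Choroid plexus, meningeal and red blood cell lists together hold 57 measured genes. Of these, 11 were among the 334 higher genes (1.58% of all genes were) and 0 among the 94 lower ones (0.446%). The other 323 higher genes are not members of these lists, and whether they come from the same tissues was not tested. The part of adjoining tissue in the other results was not tested.

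**Figure D4:**
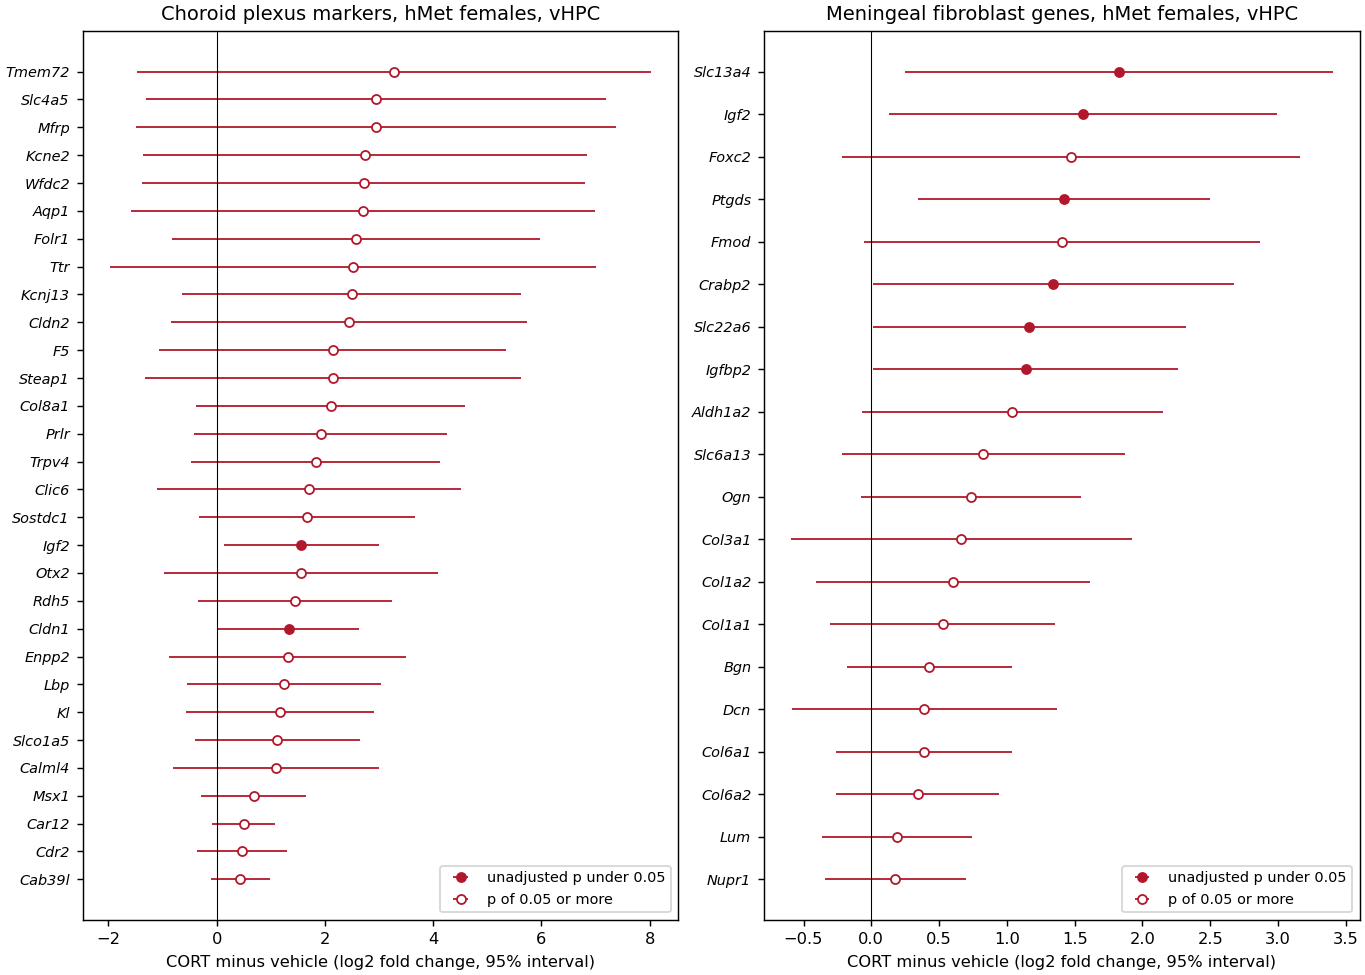
Log2 fold change of CORT against vehicle in the vHPC of hMet females (horizontal axis) with 95% intervals, for 30 choroid plexus markers (left) and 20 meningeal fibroblast genes (right). Filled points have an unadjusted p under 0.05. All points lie above 0, and the intervals of the choroid plexus markers are several log2 units wide.

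Among genes averaging at least 1 log2 CPM, the leading higher genes came from several functions. Pafah2, a hydrolase of platelet-activating factor and oxidised phospholipids (chromosome 4, 134396320 to 134427413), had the smallest p, with 0.49 (standard error 0.14). Ybx2, a germ-cell RNA-binding protein (chromosome 11, 69935796 to 69941605), had 0.54 (standard error 0.16) at a level of 1.16 log2 CPM. Dock6, an exchange factor for Rac and Cdc42, had 0.39 (standard error 0.12), Tpcn2, an endolysosomal cation channel, 0.43 (standard error 0.14), and Rreb1, a zinc-finger transcription factor at 5.85 log2 CPM, 0.45 (standard error 0.15). These 5 genes lay between 0.39 and 0.54, which is 1.31- to 1.45-fold. Efemp2, which encodes fibulin-4, had 0.49, Ppl (periplakin) 0.60, Antxr2 0.44 and the growth factor Pdgfd 0.55. Efcab7 (0.43) and Amy1 (0.41) complete the rule's list with Ptgds and a pair of MHC genes.

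Only 12 genes of this level were past the threshold and lower, and 5 of them were the immediate early genes Arc, Nr4a1, Fosb, Egr1 and Fos. Aif1, which encodes the microglial protein Iba1, had -0.57 (standard error 0.20), and the other 16 microglia markers did not have p under 0.05 (Cx3cr1 -0.09, P2ry12 -0.09, C1qa 0.13). Htr5b, a serotonin receptor, had -0.41 (standard error 0.16) and was the 1 of 12 serotonin receptor genes with p under 0.05. Over all genes 2.48% were lower at this p. Pcdhb8, a clustered protocadherin, had -0.47, Zscan30 -0.40, Serpinb1a -0.51 and Sh3tc2, a gene of myelinating Schwann cells, -0.43. In WT females and hMet males respectively, Aif1 was at -0.36 and -0.54, Serpinb1a at -0.30 and -1.22, and Sh3tc2 at -0.38 and -0.58. There Htr5b was at -0.08 and 0.26, Pcdhb8 at 0.23 and -0.16, and Zscan30 at -0.05 and 0.01. The MHC class I genes of the H2-T region moved in both directions, with H2-T22 at 0.39, H2-T24 at 0.53 and H2-T10 at -0.60. These copies are similar in sequence and reads may be split between them.

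Below 1 log2 CPM, 250 genes were past the threshold and higher and 82 lower. Zfp385c, a zinc-finger gene at -2.06 log2 CPM, had the smallest p of all genes (0.000335), with 1.84 (standard error 0.45). Msx2, a homeobox gene of barrier and border tissue, had 0.94 (standard error 0.25), and Socs3, the inhibitor of cytokine signalling by STAT3, 0.85 (standard error 0.24). Slc43a1, an amino acid transporter, had 1.23 and Akr1c13, an aldo-keto reductase, 1.26. In WT females and hMet males respectively, Zfp385c was at 1.14 and -0.02, Msx2 at -0.29 and 0.43, and Socs3 at 0.08 and -0.58. There Slc43a1 was at -0.07 and 0.46, and Akr1c13 at -0.14 and -0.40. The lower ones were led by Ly6g6f (-0.99), Ptprq (-0.79), Kbtbd13 (-0.68), Prox2os (-0.73) and Krt28 (-0.96). Respectively in WT females and hMet males, Ly6g6f was at -0.93 and -0.78, Ptprq at 0.64 and 0.23, and Kbtbd13 at 0.09 and -0.07. There Prox2os was at -0.05 and -0.51, and Krt28 at -0.83 and -0.21. Among genes past the threshold, the largest fold changes were those of Ins2 (2.60, standard error 1.12), Spo11 (2.39, standard error 0.74) and Col17a1 (2.25, standard error 1.06) on the higher side. On the lower side they were those of the predicted gene Gm6034 (-2.58, standard error 1.10), Prkag2os1 (-1.81) and Chrna6, a nicotinic receptor subunit (-1.67). Prkag2os1 and Prox2os are antisense genes, and whether counting used strand is not given. Ins2, Spo11, Gm6034, Prkag2os1 and Chrna6 averaged under -2 log2 CPM, where few reads stand behind a value.

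All 15 markers of mature oligodendrocytes and myelin were below 0 (median -0.24, range -0.37 to -0.16), as in WT females (median -0.29) and hMet males (median -0.49), but 0 had p under 0.05 in hMet females (2.48% of all genes were lower), and 9 did in hMet males (8.98% of all genes were lower). Crhr2, a receptor of the CRH family that the choroid plexus also expresses, had 0.84 (standard error 0.36). It was the 1 of 20 stress neuropeptide genes with p under 0.05 (3.18% of all genes were higher). Crhr1 had 0.04. C1ql1, a synaptic organiser also found in oligodendrocyte precursors, had 0.24 (standard error 0.09). Astrocyte, endothelial, pericyte and striatal markers and genes of oestrogen signalling, neurotrophins and GABA receptors had 0 members with p under 0.05. Of 15 thalamic genes, Zic1 (0.70, standard error 0.32) and Calb2 (0.45, standard error 0.21) were higher (3.18% of all genes were). Both are expressed beyond the thalamus.

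**Figure D5:**
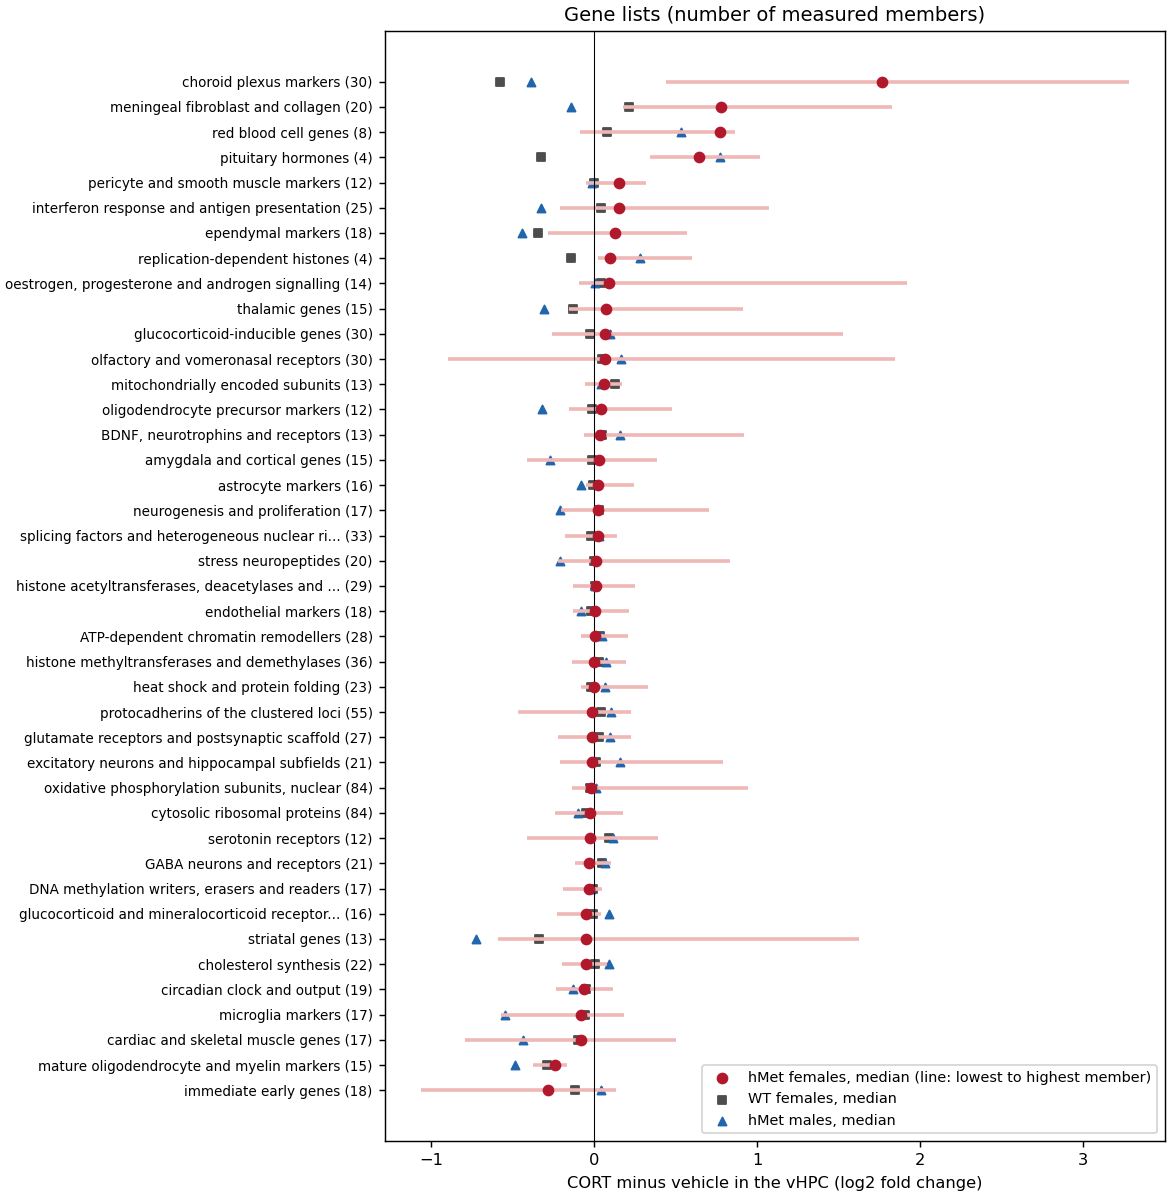
Median log2 fold change of CORT against vehicle in the vHPC (horizontal axis) of 41 gene lists, with the number of measured members. Circles are hMet females, with a line from the lowest to the highest member, squares WT females and triangles hMet males. Choroid plexus markers lie highest in hMet females (median 1.76) and immediate early genes lowest (-0.28).

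Whether the response depended on genotype was tested gene by gene. Between hMet and WT females 0 genes differed after adjustment over all genes, the smallest adjusted p being 0.920. Unadjusted, 579 genes (2.75%) responded higher in hMet females and 448 (2.12%) lower. Among genes averaging at least 1 log2 CPM, those of smallest p with the higher response were Hnrnpm, a splicing factor (difference 0.20, 95% interval 0.10 to 0.30), Lrwd1, a subunit associated with the origin recognition complex (0.35, 0.17 to 0.54), Rbm28 (0.35), Ybx2 (0.84, 0.38 to 1.29), Sgf29 (0.36) and Mtg2 (0.33). At the same level, those with the lower response were Slc7a1, the arginine transporter (-0.21), Ids (-0.19), Eid2b (-0.21), Mtmr7 (-0.18), Pum2 (-0.19) and Trim23 (-0.24). In hMet and WT females respectively, Slc7a1 was at -0.09 and 0.12, Ids at -0.10 and 0.09, and Eid2b at -0.04 and 0.17. There Mtmr7 was at -0.12 and 0.06, Pum2 at -0.12 and 0.07, and Trim23 at -0.15 and 0.09. For the higher response, in the same order, Hnrnpm was at 0.07 and -0.13, Lrwd1 at 0.16 and -0.19, and Rbm28 at 0.20 and -0.15. Ybx2 was at 0.54 and -0.30, Sgf29 at 0.22 and -0.14, and Mtg2 at 0.16 and -0.17. Pafah2, which had the smallest p of the higher genes at this level in hMet females, was at -0.14 in WT females, a difference of 0.63 (0.23 to 1.02).

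Between hMet females and hMet males the same test gave 0 genes after adjustment, with a smallest adjusted p of 0.115. Unadjusted, 1576 genes (7.47%) responded higher and 1709 (8.1%) lower in females. Spink8, a protease inhibitor gene of hippocampal pyramidal cells, had -0.16 (95% interval -0.42 to 0.09) in females and 0.82 in males, a difference of -0.98 (-1.35 to -0.61, adjusted p = 0.115). Tfrc, the transferrin receptor, had -0.12 (-0.28 to 0.05) and 0.47, a difference of -0.59 (-0.82 to -0.36, adjusted p = 0.115). Anks1b (-0.27), Exoc6b (-0.34), Runx1t1 (-0.44) and Slc7a1 (-0.26) followed. In females and males respectively, Anks1b was at -0.07 and 0.20, Exoc6b at -0.07 and 0.27, and Runx1t1 at -0.15 and 0.29. Slc7a1 was at -0.09 in females and 0.17 in males. Among genes averaging at least 1 log2 CPM, the higher response was led by C1ql1 (0.57, 0.32 to 0.83), Car10 (0.53), Dbp (0.70), Card19 (0.86), Cdk4 (0.25) and Mospd3 (0.40). The single responses behind them were 0.24 in females and -0.34 in males for C1ql1, and 0.36 and -0.50 for Card19. For Car10 they were 0.18 and -0.35, for Dbp -0.02 and -0.73, for Cdk4 0.05 and -0.20, and for Mospd3 0.20 and -0.20. Of 17 microglia markers 9 responded higher in females at an unadjusted p under 0.05, against 7.47% of all genes. All 17 were lower at p under 0.05 in hMet males (median -0.54, and 8.98% of all genes were).

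In the dHPC of the same group, measured in separate libraries and a separate fit, the genes past the threshold in the vHPC had the following values. Of the 334 higher genes the dHPC table holds 225, of which 82 were above 0 there, with a median of -0.13, and 4 had p under 0.05 (3.23% of all dHPC genes had). Of all 18257 genes measured in both regions, 8692 were above 0 in the dHPC, with a median of -0.01. Of the 94 lower genes it holds 59, of which 35 were below 0, with a median of -0.05, and 2 had p under 0.05. The animals that gave each region's libraries are not paired by the labels, and the regions were not compared by a test.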

How the data were processed

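RNA of the vHPC and dHPC was sequenced from a stranded library kit in single-end reads, at a depth that the labels state only as an approximate figure for all libraries. Read totals per library were not analysed here, and depth enters through the standard errors. The authors discarded reads of low quality, aligned the others to GRCm38 using STAR, obtained gene counts by featureCounts and ran limma-voom for each region. Tool versions and whether counting used strand are not given in the sources used here. The deposited average level, fold change and unmoderated standard error are on the log2 scale, the authors' moderated t is a score, the deposited p-value and its Benjamini-Hochberg adjustment are the authors' own, and the degrees of freedom in the deposited tables are another unit. These columns of the authors' comparisons are the measurement itself here. Further columns in the deposited tables list the authors' DEGs and were not used. Recomputed from t and the degrees of freedom, p matched the deposited p to a relative deviation of 1.63e-06.

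Moderated standard errors (fold change over t) gave the 95% intervals. The difference between the responses of 2 groups, which share no libraries, was divided by its standard error, taken as the square root of both squared moderated errors added up, and referred to a t distribution on limma's total degrees of freedom, adjusted over all genes. Its computation was checked on data simulated under the test's own assumptions, which cannot show how far those assumptions hold for these libraries. Named genes were, in each direction, the 14 of smallest p past the study's threshold that average at least 1 log2 CPM and the 5 below that level (both without predicted genes), the 6 of each difference that average at least 1 log2 CPM, the 5 of largest FC, list members at p under 0.05 with members that define a list, and genes the paper names; some further list members were named after their values were seen. The 41 gene lists and the comparisons were chosen with earlier results of these data known. Some list members are counted but not reported singly here. Coordinates are of GENCODE M21 (GRCm38), which holds 21064 of the 21088 genes, and promoters of RefSeq (GRCm38.p6). Alternatives were other thresholds, filters on level, unmoderated standard errors, a normal distribution, median t and centring. Computation used scipy 1.17.1, pandas 2.3.3 and numpy 2.4.6 in Python 3.11.15, with figures by matplotlib 3.10.9.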

Additional observations from a re-analysis of the deposited data

How the results depend on the processing

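No paired analysis was possible because the tables hold no values per library, and for the same reason no library could be left out. The count of 428 genes at an unadjusted p under 0.05 and FC over 1.3 (334 higher, 94 lower) became 80 (66 and 14) at p under 0.01, 1194 (671 and 523) without the fold filter, 264 (211 and 53) at FC over 1.5, and 0 (0 and 0) at an adjusted p under 0.05. It was 96 (84 and 12) among genes averaging at least 1 log2 CPM, 156 (138 and 18) among those averaging at least 0, 284 (225 and 59) among genes that the dHPC tables also hold, and 257 (216 and 41) without predicted genes. Unmoderated standard errors gave 372 (287 and 85). Centred by expression level, a setting chosen after seeing the data, it was 381 (221 and 160), and 1125 (591 and 534) without the fold filter. The 0 genes that differed from WT females became 1027 at an unadjusted p under 0.05 and stayed at 0 with unmoderated errors, a normal distribution or a filter on level. The 0 genes that differed from hMet males became 158 with a normal distribution in place of the t distribution and 3285 at an unadjusted p, and stayed at 0 with unmoderated errors or the filter. With unmoderated errors the p of Fos (0.0560), Sh3tc2, Car10, Chrna6, A830029E22Rik and Col17a1 rose above 0.05, and the other 68 of 74 genes named by the rule stayed on their side. The median of immediate early genes lay between -0.30 and -0.26 and that of choroid plexus markers between 1.70 and 1.76 under the 3 scalings and filters; the median of muscle genes, -0.08, became 0.29 among members averaging at least 1 log2 CPM. Weakly expressed genes are limited most, with a median 95% half-width of 0.93 log2 units under -2 log2 CPM against 0.11 at 7 and over.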

Other observations

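Genes of chromatin regulation had few members with an unadjusted p under 0.05, near the background of 3.18% higher and 2.48% lower. Of 29 histone acetyltransferase, deacetylase and reader genes, the deacetylases Hdac7 (0.25, standard error 0.10) and Hdac6 (0.11, standard error 0.05) were higher and Sirt3 (-0.11, standard error 0.05) lower. Of 36 histone methyltransferase and demethylase genes, Dot1l, the H3 methyltransferase outside the SET family, had 0.19 (standard error 0.09), and the demethylases Kdm3a (-0.14, standard error 0.05) and Phf8 (-0.09, standard error 0.04) were lower. Of 17 DNA methylation genes and 28 chromatin remodellers 0 had p under 0.05. Among 33 splicing genes Hnrnpm (0.07, standard error 0.03) was higher, and among 84 ribosomal protein genes Rpl15 (-0.09, standard error 0.04) was lower. The nuclear subunits of oxidative phosphorylation held Ndufa13 (0.12) and Cox6b2 (0.74) on the higher side and Ndufa4 (-0.10) on the lower, of 84, and mt-Nd6 (0.17) was the 1 of 13 mitochondrially encoded subunits. Grin2d (0.23, standard error 0.09), an NMDA receptor subunit, was higher and Homer1 (-0.22) lower among 27 glutamate receptor and scaffold genes. Of 55 clustered protocadherins Pcdhga12 (0.23) was higher and Pcdhb8 and Pcdhac1 (-0.38) were lower.

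For the lists that follow, the background over all genes was 3.18% higher and 2.48% lower at an unadjusted p under 0.05. No list was tested, and most held only 1 such member. The myosin genes Myh6 (0.41, standard error 0.18) and Myh7b (0.29, standard error 0.11) were higher and Myh2 (-0.71, standard error 0.31) lower among 17 muscle genes. Stat2, a transducer of interferon signals, had 0.15 (standard error 0.05) and was the 1 of 25 interferon and antigen presentation genes with p under 0.05. Calr, a chaperone of the endoplasmic reticulum, had 0.11 (standard error 0.06) and was the 1 of 23 heat shock and folding genes. Tshb (0.34, standard error 0.16) was the 1 of 4 measured pituitary genes and Hist1h2al (0.60) the 1 of 4 histone genes, both at low levels. Olfr1366 (0.76) and Olfr692 (1.22) were higher among 30 olfactory receptor genes, and Calb2 was the 1 among 21 genes of excitatory neurons and among 17 of neurogenesis. By annotation, 214 of the higher and 41 of the lower genes past the study's threshold were protein-coding (1.62% of 15719), 30 and 8 were antisense genes (4.75% of 800), 23 and 12 lincRNAs (4.10% of 853) and 18 and 26 pseudogenes (1.79% of 2463). Over all genes 2.03% were past it. Antisense genes and lincRNAs had median levels of -1.23 and -1.09 log2 CPM, against 4.10 for protein-coding genes. Of all 6891 genes under 1 log2 CPM, 332 were past the threshold. Pseudogenes were the class with more lower than higher genes. Antisense genes can share reads with the gene they overlap where counting does not use strand.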
